A study of Mus musculus with 12 samples.

Results

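Livers of conditional Keap1 knockout mice given CDDO-Im (CKO CDDO-Im, replicates 2, 3 and 4) were compared with livers of their genetic controls given the same drug (WT CDDO-Im, replicates 2, 3 and 4). These were 6 of the 12 livers of the series, chosen by labelled genotype and treatment alone. The other 6 livers, CKO vehicle and WT vehicle with 3 each, entered the fit for its estimate of the spread and gave a second genotype comparison. All 12 mice were males of 9 weeks on a C57Bl/6J background. CKO mice were Albumin-Cre:Keap1(flox/-), so Cre, driven by the albumin promoter of hepatocytes, acts on the one floxed allele while the null allele is present in every cell. WT mice were Alb-Cre:Keap1(flox/+), a control that shares the transgene and in whose hepatocytes Cre can remove the floxed allele as well, leaving the wild-type allele. The drug was a single gavage of CDDO-Im at 30 umol/kg, the other groups received the vehicle of DMSO, Cremophor-EL and PBS, and RNA was taken from liver after 6 h. Whole liver was measured, in which fewer cells of a type and less RNA per cell cannot be told apart.

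Keap1 is the adaptor through which the Cul3 ubiquitin ligase marks the transcription factor Nrf2, encoded by Nfe2l2, for degradation. Electrophiles such as CDDO-Im, the imidazolide of a synthetic oleanane triterpenoid, react with cysteines of Keap1 and let Nrf2 accumulate. Nrf2 pairs with a small Maf protein at antioxidant response elements and raises genes of glutathione synthesis, quinone reduction, thioredoxin recycling, NADPH supply and drug efflux, for which the liver is a main site. The comparison asks which genotype differences are present when both genotypes have received the inducer.

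The core of the antioxidant response element, TGACNNNGC, was looked for on both strands of RefSeq promoter windows of GRCm38.p6, which run from 250 bases before to 50 bases after a transcript start. Its first letters are shared with the AP-1 site TGACTCA. Among all 32851 windows 12.4% held the core, and of the 6856 tested genes with a window 17.4% had it in at least 1. Of the genes higher in CKO CDDO-Im livers 7 of 49 with a window (14.3%) had it, and of those lower 10 of 54 (18.5%). Among the 12 largest rises Abcc4 alone had a match, of 10 with a window, and among the 12 largest falls there were 0 matches in 10. Of the 23 genes whose genotype difference depended on the treatment, described further on, 21 had a window and 10 of these (47.6%) had the core, or 10 of their 36 windows (27.8%) against 14.8% of the 8814 windows of tested genes. A match is a description of letters and not a shown site. The windows of Abcc4, an efflux transporter that was higher in CKO CDDO-Im livers, are printed 5′ to 3′ with the matches in capitals because they are the ones among the largest rises, and those of Srxn1, Gclm and Mafg, chosen after their values were seen, because these 3 genes of the Nrf2 pathway went the other way. Positions count from 1 at the 5′ end of each window. The first Abcc4 window (chr14:118706170-118706469, minus strand) has its match, in reverse orientation, from position 226, and the second (chr14:118676882-118677181, minus strand) as written from position 228. Srxn1 (chr2:152105274-152105573, plus strand), Gclm (chr3:122245307-122245606, plus strand) and Mafg (chr11:120633498-120633797, minus strand) have theirs in reverse orientation from positions 279, 117 and 29.
Abcc4, first window: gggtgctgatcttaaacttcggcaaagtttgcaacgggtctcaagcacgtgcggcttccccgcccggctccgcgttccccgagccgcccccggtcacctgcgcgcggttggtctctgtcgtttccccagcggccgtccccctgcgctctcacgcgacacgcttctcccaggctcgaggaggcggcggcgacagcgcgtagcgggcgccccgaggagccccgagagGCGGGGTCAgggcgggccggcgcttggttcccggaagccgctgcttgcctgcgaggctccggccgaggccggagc
Abcc4, second window: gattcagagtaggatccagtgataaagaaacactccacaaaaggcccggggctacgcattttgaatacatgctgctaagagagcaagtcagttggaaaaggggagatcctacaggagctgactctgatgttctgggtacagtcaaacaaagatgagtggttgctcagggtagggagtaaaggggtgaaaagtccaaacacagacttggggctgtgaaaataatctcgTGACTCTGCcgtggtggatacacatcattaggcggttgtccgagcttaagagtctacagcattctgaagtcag
Srxn1: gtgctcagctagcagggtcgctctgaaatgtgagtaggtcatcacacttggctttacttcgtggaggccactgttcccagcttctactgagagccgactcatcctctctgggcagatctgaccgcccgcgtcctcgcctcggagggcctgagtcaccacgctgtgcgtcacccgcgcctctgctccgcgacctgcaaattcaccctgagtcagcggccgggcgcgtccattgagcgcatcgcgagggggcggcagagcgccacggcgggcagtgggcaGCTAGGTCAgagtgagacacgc
Gclm: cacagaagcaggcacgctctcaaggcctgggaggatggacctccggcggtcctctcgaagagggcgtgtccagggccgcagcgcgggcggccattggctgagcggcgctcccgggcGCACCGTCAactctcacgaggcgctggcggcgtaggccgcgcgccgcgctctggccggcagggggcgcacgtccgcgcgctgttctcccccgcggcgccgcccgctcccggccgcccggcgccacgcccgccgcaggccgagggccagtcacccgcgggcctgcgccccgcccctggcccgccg
Mafg: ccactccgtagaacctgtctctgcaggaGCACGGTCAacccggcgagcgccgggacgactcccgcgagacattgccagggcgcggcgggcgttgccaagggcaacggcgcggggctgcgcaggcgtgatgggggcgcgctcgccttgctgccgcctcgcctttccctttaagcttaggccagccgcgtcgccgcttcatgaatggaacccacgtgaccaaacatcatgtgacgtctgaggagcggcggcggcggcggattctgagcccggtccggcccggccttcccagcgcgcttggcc

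Keap1, the targeted gene, was lower in every CKO liver given the drug. It has 2 probe sets, and log2 signals are given throughout in the order of replicates 2, 3 and 4. In the drug groups the first read 8.46, 8.89 and 8.66 in WT against 3.31, 3.09 and 2.90 in CKO livers, a difference of -5.57 (limma adjusted p = 9.33e-09 with every probe set tested). The second, which was the brighter over all arrays and stood for the gene, read 7.89, 8.08 and 7.76 against 6.28, 6.29 and 6.45, a difference of -1.57 ± 0.20 (log2, SE, limma adjusted p = 0.00553). The groups did not overlap in either probe set, and the difference was larger than the spread between livers. With every probe set tested, the genotype difference under vehicle was -5.23 in the first (limma adjusted p = 1.81e-08). In the second it was -0.68 and not called (adjusted p = 0.0734). In WT livers both probe sets were higher under CDDO-Im than under vehicle, by 0.66 and 0.84 (adjusted p = 0.025 and 0.0451). The difference of -1.57 therefore also holds this higher WT level. The sources used here do not say which of the probe sets, if any, falls in the excised stretch, and one that lies outside cannot check the label. Of the 16 hepatocyte markers tested 0 were called, beside 1.54% of all genes tested. Their summed log2 signals were 238.32 to 239.29 in WT CDDO-Im and 237.01 to 237.99 in CKO CDDO-Im livers, ranges that did not overlap. A difference below 0 was found in 13 of the 16, and the median was -0.07. The groups did not overlap in 5, all lower, beside 22.7% of all genes tested in either direction. Array medians of the 12 arrays lay between 2.32 and 2.34, and the correlations of arrays within the drug groups were 0.997 to 0.998, and those between them were at most 0.996. Probe sets sat at the bottom of the scale in large numbers, 16494 to 16776 per array, and a linear fold is printed only if neither group mean was under 5.

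With the drug present in both genotypes, CKO livers differed from WT livers at 128 of the 8338 genes tested, or 1.54%, by limma at an adjusted p under 0.05. Of these, 62 genes (0.744%) were higher and 66 (0.792%) lower in CKO livers. The higher genes were led by an annexin, a lipid transfer protein and a glutathione peroxidase, followed by a transporter. Several of them were near the bottom of the scale in WT livers. The lower genes were led by Nxpe2 and a vasopressin receptor. At least 2-fold differences were found in 55 of the called genes, 31 higher and 24 lower, where those with a mean under 5 are counted by their log2 difference. The groups did not overlap in any of the 128, as in 22.7% of all genes tested. At an unadjusted p under 0.05 there were 1398 genes, and the median difference over all genes was -0.01. The count fell to 32 without WT CDDO-Im replicate 3, to 34 without CKO CDDO-Im replicate 3, to 41 without CKO CDDO-Im replicate 4, to 48 without CKO CDDO-Im replicate 2, to 63 without WT CDDO-Im replicate 2 and to 76 without WT CDDO-Im replicate 4. In all 12 fits that each left out 1 array, 23 of the 128 genes, 16 higher and 7 lower, kept their call.

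Transporters made up 4 of the 12 largest rises. Abcc4, an ATP-driven pump that exports organic anions across the basolateral membrane, read 6.28, 7.03 and 7.57 in WT CDDO-Im and 10.82, 10.89 and 11.05 in CKO CDDO-Im livers. Knockout livers lay within a narrow band and the WT livers below it and wider apart. The difference was 3.96 ± 0.28 (log2, SE), or 15.6-fold (adjusted p = 0.000111). Its relative Abcc5, a pump of cyclic nucleotides, read 6.74, 6.54 and 7.71 against 10.17, 10.64 and 10.67, which was 11.3-fold higher (log2 3.50 ± 0.27, adjusted p = 0.000144). Both pumps were measured well above the bottom of the scale in each genotype. The glutamate and cysteine transporter Slc1a1 read 2.62, 2.63 and 2.63 in WT CDDO-Im livers, at the bottom of the scale, and 6.96, 7.51 and 7.26 in CKO CDDO-Im livers (4.61 ± 0.24, adjusted p = 1.76e-05). Slc22a12, the urate transporter known from the kidney, read 3.37, 3.45 and 3.39 against 7.41, 6.57 and 9.22 (4.33 ± 0.51, adjusted p = 0.00372), so its knockout livers spread over a range wider than that of any other of these 4 genes. Its call ended when only the 6 CDDO-Im arrays were fitted (adjusted p = 0.0696). Of the list of efflux and uptake transporters these 4 of 21 members tested rose, beside 0.744% of all genes tested, 0 fell and 17 were not called, with a median of 0.09 against -0.01 for all genes. The filter on low signal asks for a log2 value above 5 on at least 3 arrays. Slc1a1 and Slc22a12 read under 5 in the WT CDDO-Im livers and can have passed through the group where they are high. The count of 4 is therefore not read against that share. With the mean of a gene's probe sets, a setting that tests 6788 genes, 2 members rose. A member can drop out of the filter there, so the lower count does not show a lost call. The largest uncalled fall, that of the organic anion uptake carrier Slco1a1, was from 13.03, 13.05 and 13.41 to 11.53, 12.24 and 11.23, groups that did not overlap (-1.50 ± 0.32, adjusted p = 0.0515). Slco1a1 was not picked by the naming rule described further on.

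The other 8 of the largest rises had varied roles. Anxa13, an annexin of intestinal and kidney epithelium that binds membranes with calcium, was near the bottom of the scale in WT livers, so the size of its difference is uncertain, with 2.47, 3.05 and 2.28 in WT CDDO-Im and 9.10, 8.89 and 8.41 in CKO CDDO-Im livers (6.20 ± 0.57, adjusted p = 0.000691). Osbpl3, a lipid transfer protein of the oxysterol-binding family, read 3.14, 4.89 and 3.72 against 9.10, 9.49 and 9.00 (5.28 ± 0.43, adjusted p = 0.000254). Apela, the gene of a ligand of the apelin receptor, read 2.66, 2.36 and 2.38 against 7.22, 6.79 and 6.80 (4.47 ± 0.26, adjusted p = 2.4e-05). In Anxa13 and Apela the WT livers sat at or near the bottom of the scale, and in Osbpl3 they read under 5. The CKO livers of all 3 genes stood clear of the bottom. Gpx2, a glutathione peroxidase of the gut epithelium that reduces hydroperoxides, read 3.98, 4.50 and 4.74 against 9.55, 8.25 and 9.93 (4.84 ± 0.55, adjusted p = 0.00296). Tinag, a basement membrane protein first known from kidney tubules, read 2.26, 2.22 and 2.22 against 6.26, 5.01 and 5.98 (3.52 ± 0.42, adjusted p = 0.00422), and Pls1, a plastin that bundles actin in microvilli, 2.47, 2.83 and 3.48 against 6.10, 5.89 and 5.95 (3.06 ± 0.37, adjusted p = 0.00418). These 6 kept their calls in every fit that left out 1 array. All 6 read under 5 in the WT CDDO-Im livers and can have passed the filter through the group where they are high. The fits kept the genes and probe sets chosen from all 12 arrays, so they do not test that passage. Tafa2, given below, has the same limit. Serpinb1a, an inhibitor of neutrophil proteases, was the exception among the brighter genes: its WT livers spread over 3.91, 6.24 and 5.74 while its CKO livers read 9.45, 10.00 and 9.04, an 18.4-fold difference (4.20 ± 0.81, adjusted p = 0.0347). Tafa2, a small secreted protein, read 2.52, 2.52 and 2.25 against 6.04, 6.23 and 7.94 (4.30 ± 0.83, adjusted p = 0.036). The calls of Serpinb1a and Tafa2 were each lost in 9 of the 12 fits without 1 array. These were the fits without any 1 of the 6 CDDO-Im arrays, CKO vehicle replicate 5 and WT vehicle replicate 1 for both genes, CKO vehicle replicate 3 for Serpinb1a and WT vehicle replicate 3 for Tafa2. The highest adjusted p was 0.113 for Serpinb1a, without CKO CDDO-Im replicate 3, and 0.12 for Tafa2, without WT CDDO-Im replicate 3. Without the filter on low signal, which tests 18193 genes, neither was called (adjusted p = 0.152 and 0.158).

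**Figure D1:**
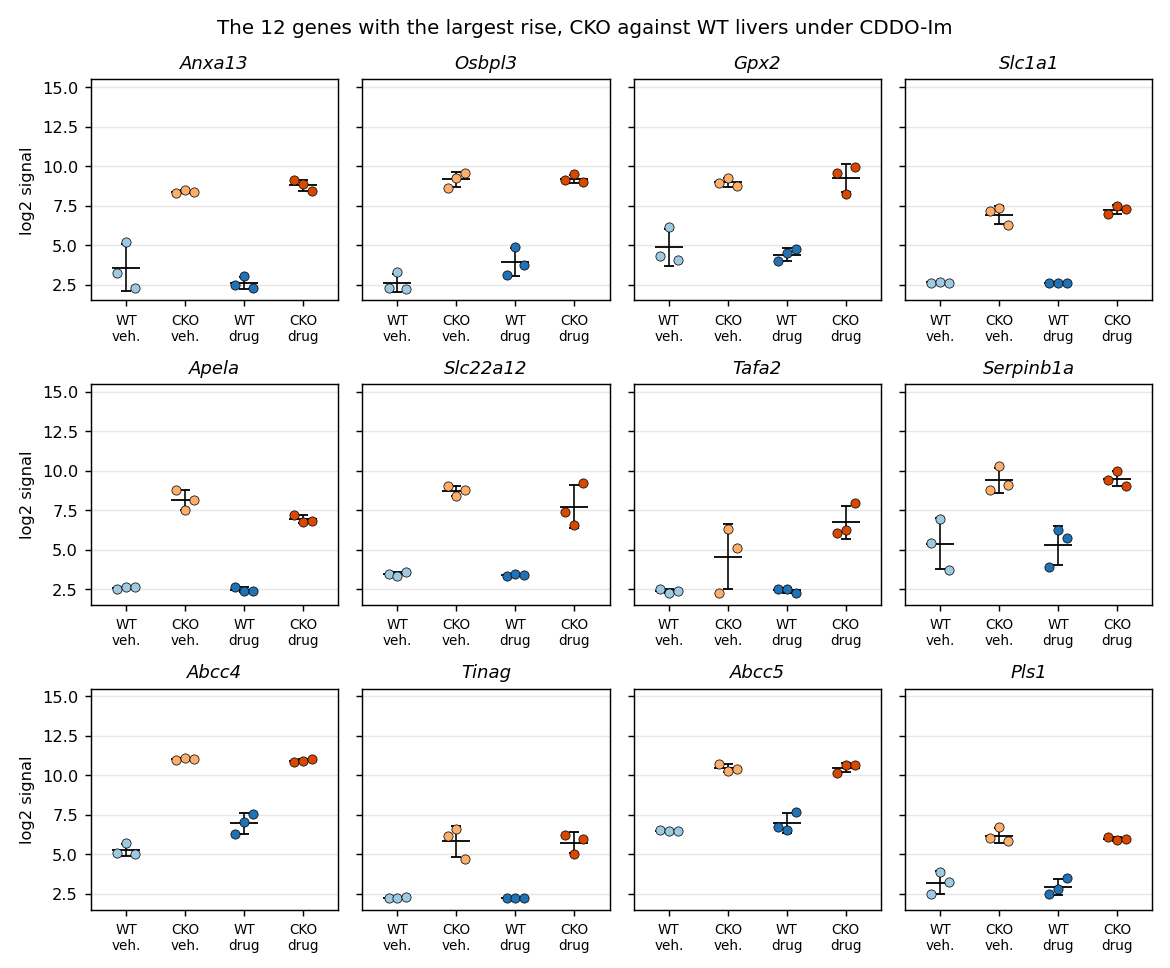
Log2 signals of the 12 genes with the largest rise, 1 point per liver, with the mean as a line and the SD as bars (n = 3), for WT and CKO livers under vehicle (veh.) and CDDO-Im (drug). In each panel the 3 CKO drug livers lie above the 3 WT drug livers, and in Tafa2 the CKO vehicle livers spread from 2.28 to 6.29.

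Among the 12 largest falls the receptors and signalling genes were measured at middle levels. Nxpe2, a gene of unsettled function, fell, with 7.71, 7.56 and 8.01 in WT CDDO-Im and 3.77, 3.65 and 3.92 in CKO CDDO-Im livers (-3.98 ± 0.29, adjusted p = 0.000115). Avpr1a, the vasopressin receptor through which the hormone acts on hepatocyte calcium, read 7.22, 7.81 and 7.65 against 5.02, 5.19 and 4.88, which was 5.79-fold lower (-2.53 ± 0.43, adjusted p = 0.0207). Both genes had tight groups that stood far apart. Mn1, a transcriptional cofactor, read 6.45, 6.21 and 6.24 against 3.90, 3.89 and 4.27 (-2.28 ± 0.32, adjusted p = 0.00982). Slc35e3, a relative of the nucleotide sugar transporters, read 9.28, 9.61 and 9.77 against 7.76, 7.28 and 6.99, or 4.62-fold lower (-2.21 ± 0.36, adjusted p = 0.0185). Its vehicle groups overlapped, at 8.03, 8.29 and 6.80 in WT livers 1, 2 and 3 and 7.43, 6.85 and 7.45 in CKO livers 3, 4 and 5, and the interaction was not called (-1.75 ± 0.51, adjusted p = 0.249). Spsb4, an adaptor of a ubiquitin ligase, read 6.80, 7.31 and 6.30 against 4.64, 4.57 and 4.92 (-2.09 ± 0.30, adjusted p = 0.0114). Gas1, a membrane-anchored coreceptor of hedgehog signals, read 8.22, 7.95 and 7.33 against 5.50, 6.23 and 5.58, 4.18-fold lower (-2.06 ± 0.41, adjusted p = 0.0408). Cadps2, which primes secretory vesicles for release, was 4.15-fold lower, with 7.80, 6.56 and 7.11 against 5.39, 4.81 and 5.12.

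The remaining falls included the brightest of the set. Tmem19, a transmembrane protein, read 11.20, 11.72 and 11.39 in WT CDDO-Im and 9.04, 9.52 and 9.60 in CKO CDDO-Im livers, 4.14-fold lower (-2.05 ± 0.21, adjusted p = 0.00155). Sult5a1, a cytosolic sulfotransferase, read 8.18, 8.05 and 8.10 against 6.45, 6.62 and 6.44, 3.04-fold lower (-1.61 ± 0.25, adjusted p = 0.0176). It was the one member of glucuronidation and sulfation called, of 20 tested. Trim30d, of a family of interferon-inducible ubiquitin ligases with near-identical copies, read 7.10, 6.63 and 6.71 against 5.48, 5.12 and 5.24 (-1.53 ± 0.31, adjusted p = 0.0408). H2-Q5, a class I histocompatibility gene with close paralogs that a probe set may not tell apart, read 7.73, 7.27 and 7.03 against 5.97, 5.55 and 6.01, 2.83-fold lower (-1.50 ± 0.19, adjusted p = 0.00546). Tmem19, H2-Q5, Nxpe2, Mn1 and Keap1 kept their calls in all 12 fits that left out 1 array. The calls of Gas1 and Trim30d were each lost in 8 of those fits, those without any 1 of the 6 CDDO-Im arrays or WT vehicle replicate 1 and, in turn, CKO vehicle replicate 5 or 4. The highest adjusted p was 0.14 for Gas1 without WT CDDO-Im replicate 3 and 0.128 for Trim30d without CKO CDDO-Im replicate 3. Avpr1a and Sult5a1 lost theirs without any 1 of the CKO CDDO-Im arrays or WT CDDO-Im replicate 3, Avpr1a also without WT CDDO-Im replicate 4 and Sult5a1 without WT CDDO-Im replicate 2 (at most 0.0909 and 0.0689). Slc35e3 lost its call without replicate 3 or 4 of either drug group (at most 0.0836), and all 3 were at their highest without WT CDDO-Im replicate 3. Cadps2 and Spsb4 lost theirs in 1 fit, without CKO CDDO-Im replicate 3 (adjusted p = 0.0551 and 0.0521). With the 6 CDDO-Im arrays alone Cadps2, Gas1 and H2-Q5 were not called (adjusted p = 0.0824, 0.0652 and 0.0652), and without the filter on low signal 8 of the 12 falls were not, with Keap1, Nxpe2, Tmem19 and H2-Q5 still called.

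**Figure D2:**
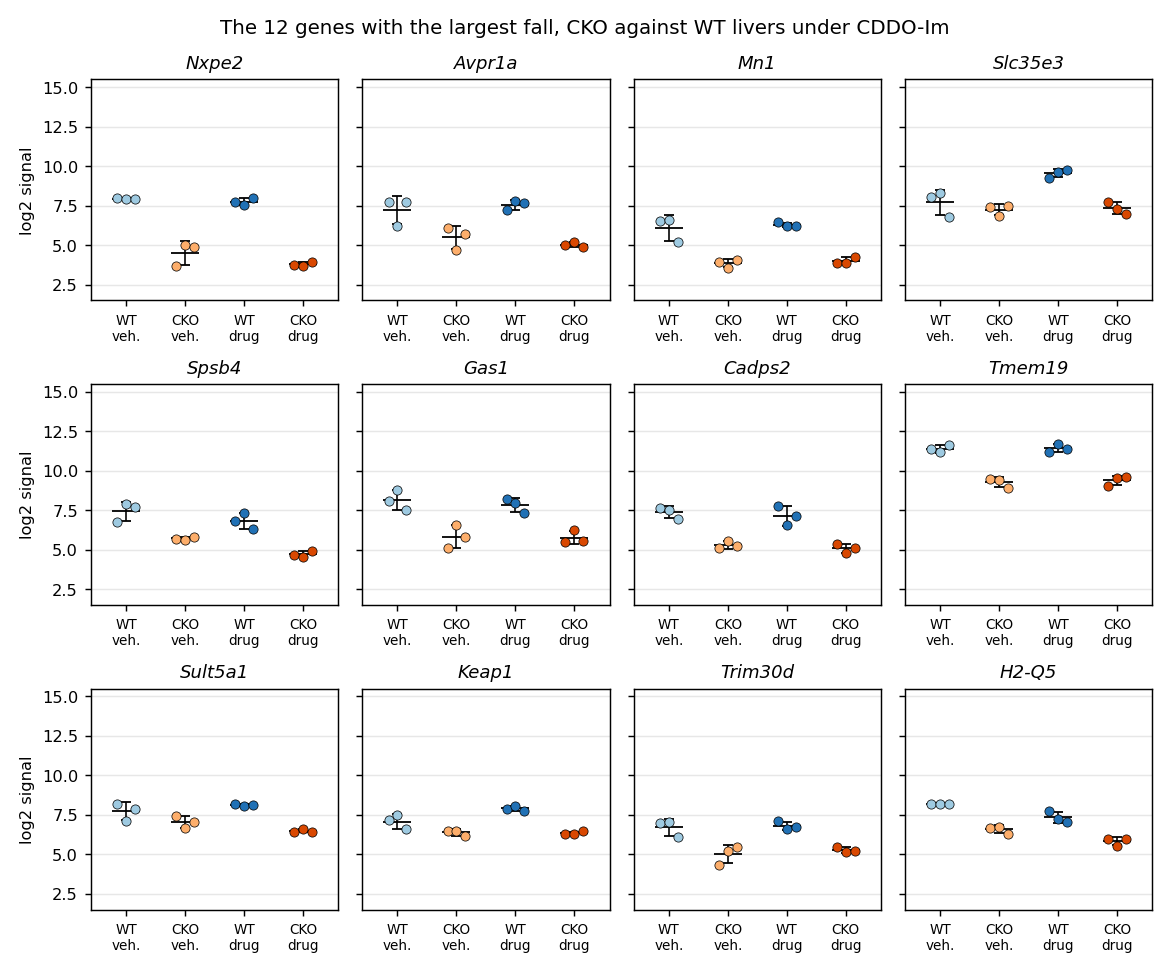
Log2 signals of the 12 genes with the largest fall, 1 point per liver, with the mean as a line and the SD as bars (n = 3), for WT and CKO livers under vehicle (veh.) and CDDO-Im (drug). In each panel the 3 CKO drug livers lie below the 3 WT drug livers, and in Slc35e3 and Keap1 the WT drug livers also stand above both vehicle groups.

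Several genes of the Nrf2 pathway were lower, not higher, in knockout livers when both genotypes had the drug. Srxn1, the sulfiredoxin that repairs over-oxidised peroxiredoxins, read 12.32, 12.94 and 12.61 in WT CDDO-Im against 10.86, 11.32 and 11.70 in CKO CDDO-Im livers. WT drug livers were the highest of all 4 groups, since vehicle livers of WT mice read 9.05, 9.84 and 9.76 and those of CKO mice 11.91, 11.84 and 11.68. The drug groups differed by -1.33 ± 0.25, or 2.52-fold lower in CKO livers (adjusted p = 0.0341). Gclm, the modifier subunit of the enzyme that limits glutathione synthesis, read 13.51, 13.79 and 13.45 against 13.09, 12.78 and 12.94, 1.57-fold lower in CKO livers (-0.65 ± 0.11, adjusted p = 0.0224). Its vehicle groups lay below both, between 12.42 and 12.71. Mafg, a small Maf partner of Nrf2, read 10.91, 10.75 and 10.68 against 10.36, 10.24 and 10.33, 1.39-fold lower (-0.47 ± 0.09, adjusted p = 0.032). The motif windows of these 3 genes are printed above. Srxn1 lost its call in 8 of the 12 fits without 1 array, which were those without WT CDDO-Im replicate 2, 3 or 4, CKO CDDO-Im replicate 2 or 3 or any CKO vehicle array (at most adjusted p = 0.134, without WT CDDO-Im replicate 3). Gclm lost it without CKO CDDO-Im replicate 3 (0.0852) or 4 or WT CDDO-Im replicate 2 or 3, and Mafg without these or CKO CDDO-Im replicate 2 (at most 0.106, without CKO CDDO-Im replicate 3). With the 6 CDDO-Im arrays alone the adjusted p was 0.113 for Srxn1, 0.117 for Gclm and 0.0941 for Mafg, and Mafg was also not called with quantile normalization (0.0512) or median centring (0.0621). With the mean of a gene's probe sets Srxn1 and Gclm were not called (0.0909 and 0.0554). Without the filter on low signal the 3 genes had an adjusted p of 0.138, 0.0818 and 0.0804. The Srxn1 probe set is of a kind that can match more than 1 transcript.

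Other genes of detoxification were higher in knockout livers despite the drug in both. Cbr1, a carbonyl reductase of quinones and prostaglandins, read 12.70, 12.44 and 12.77 in WT CDDO-Im and 14.15, 13.92 and 14.14 in CKO CDDO-Im livers, 2.71-fold higher (1.44 ± 0.16, adjusted p = 0.00253). It kept this call in every fit that left out 1 array. Gstm2, a mu-class glutathione S-transferase with close paralogs, read 10.70, 10.74 and 10.85 against 12.14, 11.78 and 11.43, 2.03-fold higher (1.02 ± 0.16, adjusted p = 0.018). Blvrb, a flavin and biliverdin reductase, read 13.16, 13.30 and 13.27 against 14.11, 13.92 and 13.88, 1.65-fold higher (0.72 ± 0.11, adjusted p = 0.0176). Msra, which repairs oxidised methionine, was 1.46-fold higher (0.55 ± 0.11, adjusted p = 0.0426), with 12.26, 12.34 and 12.40 against 13.02, 12.90 and 12.72. Gstm2 and Blvrb lost their calls without WT CDDO-Im replicate 2 or 3 or CKO CDDO-Im replicate 3, and Blvrb also without CKO CDDO-Im replicate 2 (at most adjusted p = 0.0806 and 0.0624, both without WT CDDO-Im replicate 3). Msra lost its call in 10 of the 12 fits (at most 0.137, without WT CDDO-Im replicate 3), all but those without WT vehicle replicate 1 or 3. With the 6 CDDO-Im arrays alone Gstm2 and Msra were not called (0.103 and 0.0925). Cd36, a fatty acid uptake receptor, was 5.44-fold higher, with 9.00, 8.78 and 8.64 against 11.18, 11.38 and 11.19 (2.44 ± 0.41, adjusted p = 0.0201), a call lost without any 1 of the 6 CDDO-Im arrays (at most 0.0836). Slc39a4, a zinc importer, was 1.79-fold higher, with 10.54, 10.60 and 10.73 against 11.77, 11.38 and 11.24 (0.84 ± 0.13, adjusted p = 0.0139), a call lost without WT CDDO-Im replicate 3 (0.0632) and with the 6 CDDO-Im arrays alone (0.101). Without the filter on low signal Gstm2, Blvrb, Msra, Cd36 and Slc39a4 had an adjusted p from 0.0586 to 0.122.

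The remaining genes that are classic readouts of Nrf2 did not pass the test under the drug. Nqo1, a quinone reductase, read 9.86, 9.59 and 9.56 in WT CDDO-Im and 10.78, 10.73 and 11.05 in CKO CDDO-Im livers, groups that did not overlap (1.19 ± 0.35, adjusted p = 0.125). It was called with the 6 CDDO-Im arrays alone (adjusted p = 0.0253) and without WT vehicle replicate 1 (adjusted p = 0.00481). The WT vehicle livers read 5.18, 6.53 and 6.96, the lowest value being that of replicate 1. Gclc, the catalytic subunit of glutathione synthesis, read 14.10, 14.14 and 14.04 against 13.72, 13.57 and 13.79, again without overlap but with the knockout livers below (-0.40 ± 0.11, adjusted p = 0.0895). Txnrd1, the thioredoxin reductase, differed by -0.31 ± 0.13 (adjusted p = 0.25) and Hmox1, the heme oxygenase, by -0.74 ± 0.29 (adjusted p = 0.229). Nfe2l2 itself read 10.50, 10.80 and 10.47 against 10.25, 9.97 and 10.08 (-0.49 ± 0.14, adjusted p = 0.111). In this group of 5 the differences had both signs, and a p that misses the threshold does not show equal levels. Cbr3, a carbonyl reductase, had the largest difference in its list and was not called, with 10.24, 10.05 and 10.62 against 14.11, 13.99 and 14.60 (3.93 ± 0.88, adjusted p = 0.0631). Its drug groups did not overlap. The WT vehicle livers, which also enter the shared estimate of the spread, read 3.14, 7.16 and 3.01. The part of their spread in the missing call was not tested. Cbr3 was not picked by the naming rule described further on.

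**Figure D3:**
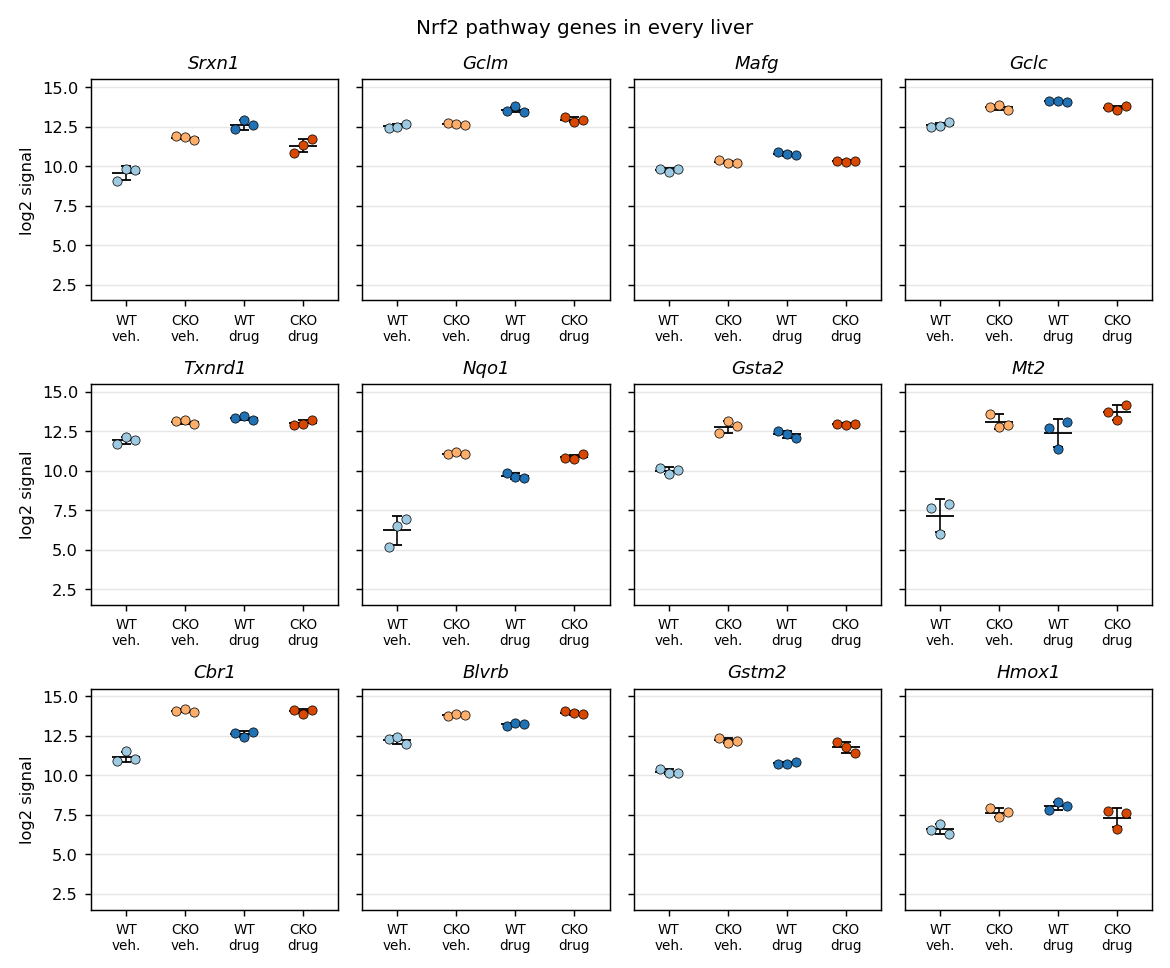
Log2 signals of 12 genes of the Nrf2 pathway, 1 point per liver, with the mean as a line and the SD as bars (n = 3), for WT and CKO livers under vehicle (veh.) and CDDO-Im (drug). In Srxn1, Gclm, Mafg and Gclc the 3 WT drug livers lie above the other 3 groups, while in Nqo1, Cbr1, Blvrb and Gstm2 they lie between the WT vehicle and the CKO livers.

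Whether the genotype difference under the drug differed from that under vehicle was tested as the interaction in the same fit. It was called for 23 genes (0.276%), 21 negative and 2 positive. All 21 negative genes were higher in CKO than in WT livers under vehicle, and 19 of the 23 were not called under the drug, where their differences were at most 1.32 in size. The metallothioneins, which bind zinc and copper, had the most negative values. Mt2 differed between genotypes by 5.94 under vehicle and by 1.32 ± 0.55 under the drug (interaction -4.62 ± 0.78, adjusted p = 0.0492), and Mt1 by 4.89 and 0.86 ± 0.46 (interaction -4.03 ± 0.65, adjusted p = 0.0411). In Mt2 the WT livers read 7.63, 5.99 and 7.88 under vehicle and 12.73, 11.37 and 13.09 under CDDO-Im, and the CKO livers 13.62, 12.76 and 12.93 and then 13.71, 13.23 and 14.19. The WT vehicle group alone lay apart from the other 3. Nqo1 followed with -3.68 ± 0.49 (adjusted p = 0.0187) and Gsta2, an alpha-class glutathione S-transferase, with -2.15 ± 0.26 (adjusted p = 0.0138). Ppfibp2, a scaffold protein of the liprin family, had -2.05 (adjusted p = 0.0138), with a difference under the drug of -0.60 ± 0.18 that was not called (adjusted p = 0.127). Srxn1 had -3.59 ± 0.36 and Gclc -1.54 ± 0.15 (both adjusted p = 0.0052), and these were the 2 of 23 interactions called in all 12 fits that left out 1 array. Of the others named here Gsta2 and Ppfibp2 each lost the call in 2 fits, Nqo1 in 8, Mt2 in 9 and Mt1 in 10. The count of 23 fell to 2 without CKO CDDO-Im replicate 2, to 3 without CKO CDDO-Im replicate 3 or CKO vehicle replicate 3, to 8 without WT CDDO-Im replicate 4 and to 10 without WT CDDO-Im replicate 3. It was 11 without CKO vehicle replicate 5, 12 without CKO CDDO-Im replicate 4, WT CDDO-Im replicate 2 or CKO vehicle replicate 4 and 14 without WT vehicle replicate 1.

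Both positive interactions came from genes called lower in CKO livers under vehicle and not called under the drug. Pnpla3, a lipid droplet protein, read 6.20, 6.11 and 5.74 in WT livers under vehicle and 2.55, 2.26 and 2.46 under CDDO-Im. CKO livers read 2.55, 4.01 and 2.55 under vehicle and 2.49, 2.46 and 2.46 under CDDO-Im. With the drug both genotypes were at the bottom of the scale, so the level under the drug is a bound (interaction 3.02 ± 0.46, adjusted p = 0.0332). Only the WT vehicle livers read above 5, so Pnpla3 passed the filter through that group alone. Its adjusted p is therefore not read as support for an interaction. Tsc22d1, a leucine zipper transcription factor, differed by -1.30 under vehicle and by 0.40 ± 0.20 under the drug (interaction 1.70 ± 0.29, adjusted p = 0.0492). Pnpla3 lost the call in 10 and Tsc22d1 in 11 of the 12 fits without 1 array.

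The means of the vehicle comparison come from none of the 6 drug arrays, but both comparisons share 1 estimate of the spread from all 12 arrays, so their calls are not independent. Under vehicle 543 genes (6.51%) were called, 271 higher and 272 lower in CKO livers. This count was 275 without CKO vehicle replicate 3 and 302 without WT vehicle replicate 1, and the shares that follow rest on it. Of the 128 genes called under the drug 62 were also called under vehicle, which is 48.4% of the drug calls and 11.4% of the vehicle calls. In 59 of these the direction was the same, higher in 35 and lower in 24. The 3 exceptions, Srxn1, Mafg and Dennd4c, were higher in CKO livers under vehicle and lower under the drug. Dennd4c, an exchange factor of Rab GTPases named after its values were seen, read 9.57, 9.79 and 9.83 in WT CDDO-Im and 9.03, 9.09 and 9.13 in CKO CDDO-Im livers, with 8.90, 8.56 and 8.70 in WT vehicle and 9.22, 9.02 and 9.15 in CKO vehicle livers. Its call under the drug (-0.65 ± 0.10, adjusted p = 0.0183) was lost without any 1 of the CKO CDDO-Im arrays or WT CDDO-Im replicate 3 or 4, at most 0.0836. The other 66 drug calls, 27 higher and 39 lower, were not called under vehicle, and the interaction was called in 0 of these 66, so they are not shown to differ between the treatments. Of the 62 genes higher under the drug 58 also had a difference above 0 under vehicle, and of the 66 lower genes 54 had one below 0.

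The size of the difference was compared the same way. The genes called higher under the drug had a median difference of 0.97 there and 0.76 under vehicle, and those called lower -0.79 and -0.46. Genes called higher under vehicle had a median of 0.78 there and of 0.25 under the drug, where 220 of the 271 kept the direction. Genes called lower under vehicle had -0.76 and -0.32, with 242 of the 272 in the same direction. A median over genes chosen in one comparison is larger there by that choice, so each pair describes the chosen genes and tests nothing. Across the 8338 genes, which are not independent replicates, the differences of the 2 comparisons had a Pearson correlation of 0.609 and a Spearman correlation of 0.394. Osbpl3 differed by 5.28 under the drug and 6.56 under vehicle, Anxa13 by 6.20 and 4.80, and Nxpe2 by -3.98 and -3.42, with 0 of these 3 interactions called.

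**Figure D4:**
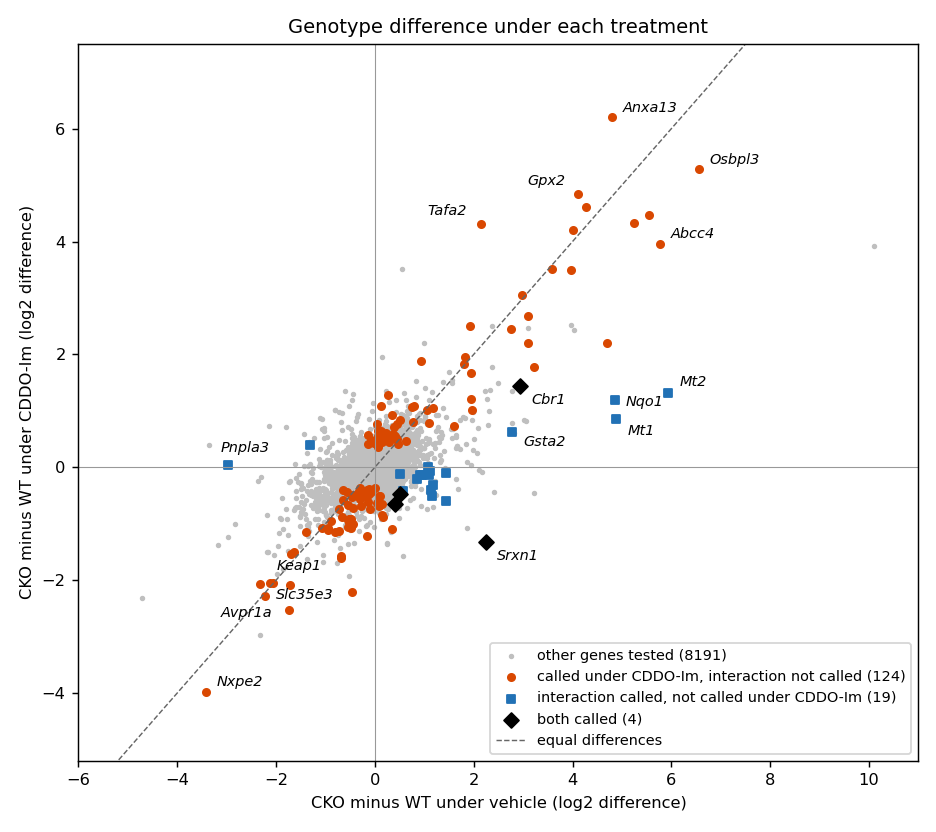
Genotype difference (CKO minus WT, log2) of each of the 8338 genes tested, under vehicle on the x axis and under CDDO-Im on the y axis, with equal differences on the dashed line. Most of the 124 genes called under CDDO-Im without a called interaction lie where both differences have the same sign, the 19 genes with a called interaction and no call under CDDO-Im lie between -0.60 (Ppfibp2) and 1.32 (Mt2) on the y axis, and Srxn1 lies at 2.25 and -1.33.

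The listed genes of the pathway and of liver biology were then counted over 37 lists, of which 9 had a called member and 28 had 0. Over all genes tested 0.744% were called higher and 0.792% lower, and with so few members a single call puts a list above these shares. In the list of Keap1-Nrf2 pathway regulators 2 of 10 members tested fell, Keap1 and Mafg, with a median of -0.26, and 0 rose. Keap1 is the targeted gene, so a fall is given by the design, and Mafg was the only other call. The size of the Keap1 difference also holds the higher WT level under the drug given above. Glutathione synthesis, conjugation and recycling had 2 of 26 that rose, Gpx2 and Gstm2, 1 that fell, Gclm, and a median of 0.14. Gpx2 read under 5 in the WT CDDO-Im livers, so it can have passed the filter through the group where it is high. Quinone, carbonyl and aldehyde detoxification had 1 of 23 that rose, Cbr1, and 0 that fell, with a median of -0.03. Thioredoxin and peroxide defence had 2 of 19 that rose, Blvrb and Msra, 1 that fell, Srxn1, and a median of -0.04. Metallothioneins and metal handling had 1 of 18 that rose, Slc39a4, and fatty acid oxidation and PPAR alpha targets 1 of 27, Cd36. In each of these lists most members were not called, and the calls had both signs in 2 of them. In the pentose phosphate and NADPH list 0 of 11 were called, with Mthfd1l, a mitochondrial folate enzyme, at 1.35 ± 0.32 (adjusted p = 0.0702). Carboxylesterases had 0 of 8 called, with Ces1g at 0.98 (adjusted p = 0.331), which was called with the 6 CDDO-Im arrays alone (0.0331) and without WT vehicle replicate 3 (0.0451), and cytochrome P450 families 1 to 3 had 0 of 22, with Cyp2b9 at 2.52 and CKO CDDO-Im livers at 7.09, 2.47 and 5.10.

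Interferon response genes lay mostly on one side. Of 23 tested 2 fell, 0 rose and 21 were not called, while 22 had a difference below 0 and the median was -0.55 against -0.01 for all genes. The 22 is a count over genes and not over livers. Summed log2 signals of the 27 members with a probe set were 202.60 to 221.42 in WT CDDO-Im livers. In CKO CDDO-Im livers they were 186.27 to 203.73, so the ranges overlapped and each was wide. In 9 of the 23 the groups did not overlap, all 9 with CKO livers lower, beside 22.7% of all genes tested in either direction and 0.792% of all genes called lower. Irf9, the DNA-binding subunit of the interferon-activated complex, read 7.57, 8.24 and 7.32 in WT CDDO-Im and 6.79, 6.51 and 6.42 in CKO CDDO-Im livers, 2.20-fold lower (-1.14 ± 0.20, adjusted p = 0.0236). Parp14, an ADP-ribosyltransferase induced by interferon, read 8.39, 8.52 and 8.06 against 7.66, 7.25 and 6.84, 2.10-fold lower (-1.07 ± 0.20, adjusted p = 0.0341). Both calls were lost without CKO CDDO-Im replicates 3 or 4 or WT CDDO-Im replicate 2, Irf9 also without CKO CDDO-Im replicate 2 and Parp14 also without WT CDDO-Im replicate 3 or WT vehicle replicate 1 (at most adjusted p = 0.0857 and 0.136). With the 6 CDDO-Im arrays alone both had an adjusted p of 0.144, and without the filter on low signal 0.103 and 0.135. The list held 10 genes called lower under vehicle, where its median was -1.07.

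Lists of lipid synthesis, bile acids, glucose and sex-biased genes had 0 called members under the drug, beside 1.54% of all genes tested. Cholesterol synthesis and uptake had 0 of 19 called, 16 below 0 and a median of -0.38, with Insig1, which holds back the sterol sensor, at -0.99 ± 0.32 (adjusted p = 0.157) and groups that did not overlap in 7, all lower, beside 22.7% of all genes tested. Fatty acid and triglyceride synthesis had 0 of 25 called and a median of 0.02, with the elongase Elovl3 at -1.39. Bile acid synthesis and transport had 0 of 14 called, and gluconeogenesis and glucose handling 0 of 13. Male-biased liver genes had 0 of 13 called and a median of -0.53, with Hsd3b5, a steroid dehydrogenase of male liver, at 11.03, 11.67 and 11.62 in WT CDDO-Im and 7.49, 10.36 and 9.51 in CKO CDDO-Im livers (-2.32 ± 0.89, adjusted p = 0.224). Of the female-biased genes 4 of 11 with a probe set passed the filter and 0 were called, and since a gene can pass through the group where it is high, the sign of their differences is not read. Proteasome subunits and regulators had 0 of 34 called and a range from -0.29 to 0.22, the narrowest among the lists with over 20 members tested. The unfolded protein and amino acid stress list had 0 of 23 called, with Asns, the asparagine synthetase, at 8.66, 5.26 and 5.85 against 8.08, 9.68 and 9.44, groups that overlapped.

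Markers of other cell types were counted beside these results. The 9 lists covered blood cells (neutrophils, lymphocytes and the erythroid lineage), Kupffer cells with other macrophages, endothelium, fibroblasts with stellate cells, bile duct, fat and exocrine pancreas. They named 120 genes, of which 51 passed the filter and 0 were called, beside 1.54% of all genes tested. With so low a share, 0 calls among 51 genes do not show equal levels. In 8 of the 51 the groups did not overlap, as in 22.7% of all genes tested. Macrophage and Kupffer cell markers had a median of 0.17 and summed log2 signals of 124.23 to 127.38 in WT CDDO-Im and 125.04 to 131.55 in CKO CDDO-Im livers, and the scavenger receptor Marco read 6.19, 6.50 and 5.76 against 7.02, 7.58 and 6.82. Endothelial markers had a median of 0.05 and sums of 131.36 to 136.77 against 135.12 to 140.46, with the hyaluronan receptor Lyve1 at 1.35. The sums of these 2 lists overlapped between the groups. Of the neutrophil markers 0 passed the filter. The part of other cell types in the differences of the called genes was not tested.

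**Figure D5:**
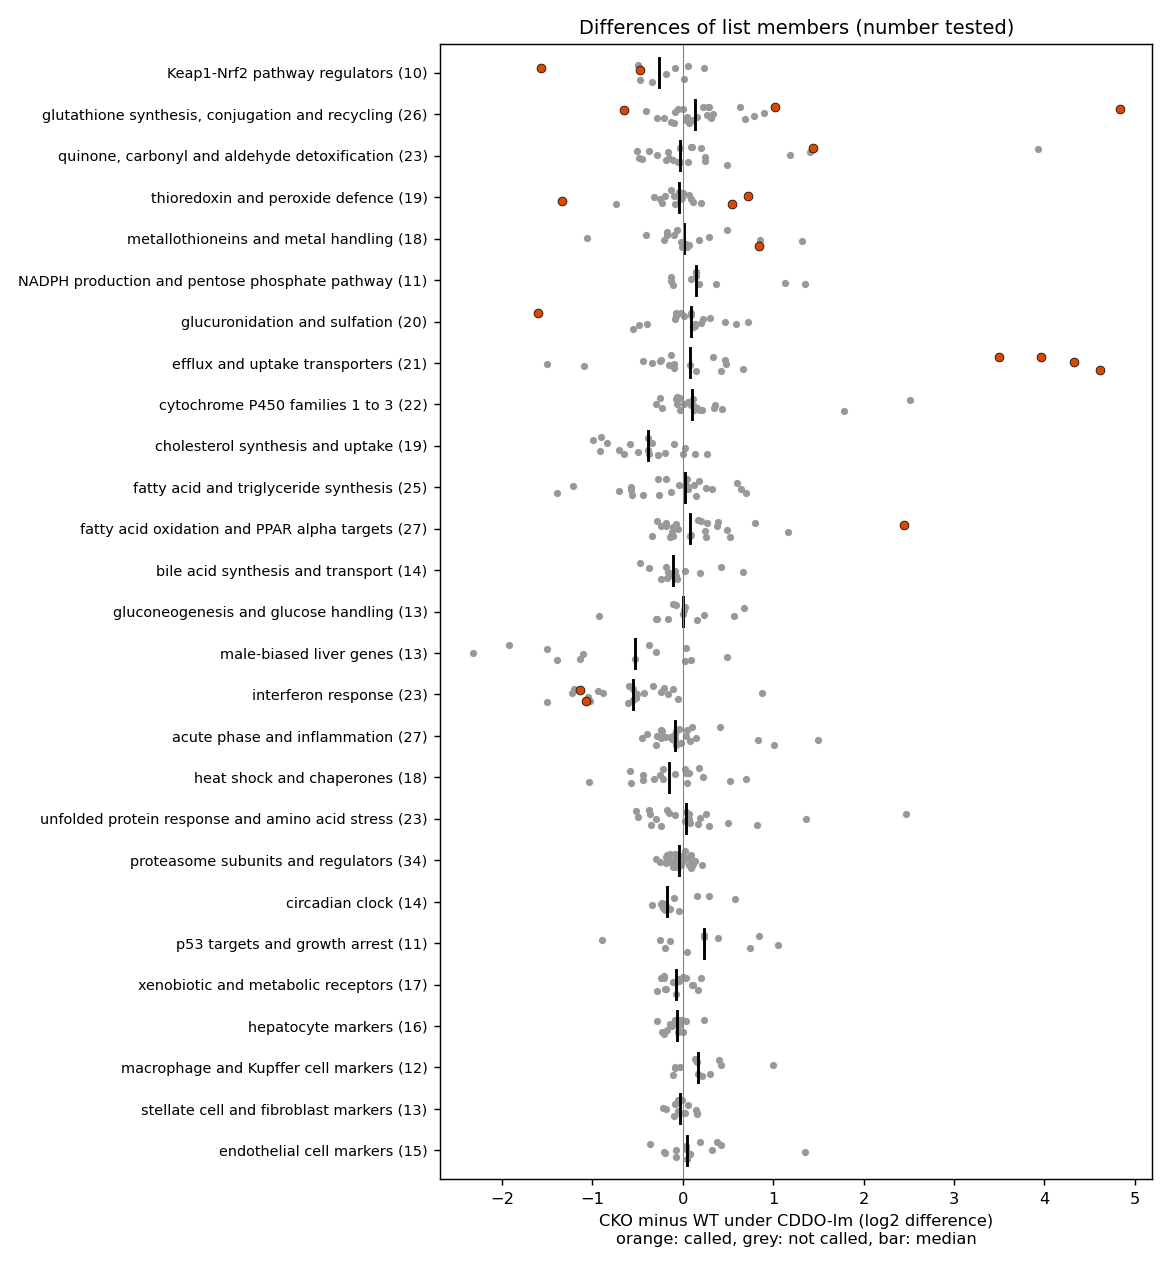
Differences between CKO CDDO-Im and WT CDDO-Im livers (log2) of the members of the lists with at least 10 members tested, 1 point per gene, orange where called and grey where not, with a bar at each list's median. The 4 transporters called lie between 3.50 and 4.61, and 22 of 23 interferon response genes lie below 0.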

How the data were processed

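RNA of 12 livers had been hybridised to 1 Affymetrix mouse array each. The deposited table holds log2 signals of 45101 probe sets. The authors derived them by GCRMA (version 2.12.1, under R 2.7.0), as the submitters' processing notes state, and these log2 signals are used as deposited. The settings of its background correction and normalization were not stated there. The method moves probe sets without signal to the bottom of the scale, so a difference measured from there depends on the background model. Groups and replicate numbers came from the labels, which do not say that replicates came from separate litters, so p-values measure the spread between these livers. The number of arrays limits the precision. In 0 pairs of arrays were the values identical.

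The platform annotation names 1 gene for 34945 probe sets, several for 932 and 0 for 9160, while 64 are controls. A RefSeq gene table (GRCm38.p6) matched 34741 and changed 0 symbols. Each of 18193 genes was represented by its brightest probe set over the 12 arrays, and the 8338 genes above a log2 value of 5 on at least 3 arrays were tested. Group means were fitted with limma 3.58.1 in R 4.3.3 over 12 arrays (8 residual and 2.32 prior degrees of freedom), two-sided, with Benjamini-Hochberg adjustment over all 8338 genes and calls at an adjusted p under 0.05. The scripts were tested on simulated data. Errors of differences are standard errors.

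Members, lists and the naming rule were chosen with earlier results of these data known. The rule named the 12 largest called rises and falls without overlap (no predicted genes or clones), per list the 2 largest called rises and 2 falls or else the largest change, the 6 largest interactions of each sign, and Keap1, Nfe2l2, Nqo1, Gclc, Gclm, Hmox1, Txnrd1 and Srxn1. Promoters were to be printed for the first 4 rises with the motif, and 1 had it. Alternatives were quantile normalization, median centring, other filters and probe set rules, other variance models, repeated values left out, the 6 drug arrays alone, the replicate number as a block and each array left out.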

Additional observations from a re-analysis of the deposited data

Results flagged for a closer look

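The genotype difference under CDDO-Im differed from that under vehicle in 23 genes by the interaction test (limma, adjusted p from 0.0052 to 0.0492 over 8338 genes), and each value below is the first difference minus the second, in log2. Metal binding and redox genes had Mt2 at -4.62, Mt1 at -4.03, Nqo1 at -3.68, Srxn1 at -3.59, Txnrd1 at -1.48 and the glutathione reductase Gsr at -1.06. Conjugation and its supply had Gsta2 at -2.15, Gclc at -1.54 and the UDP-glucose dehydrogenase Ugdh at -1.19. Carbonyl reduction, NADPH and glycogen had Akr1c19 at -1.66, Cbr1 at -1.50, Pgd at -1.22 and the branching enzyme Gbe1 at -1.10. Regulators and signalling genes had Pir at -1.55, Mafg at -0.98 and Ikbkg, the regulatory subunit of the kinase complex that activates NF-kappa-B, at -0.99. The remaining negative values were -2.05 for Ppfibp2, -1.07 for the lipid hydrolase Abhd4, -1.06 for Dennd4c, -1.06 for Ubap1 and -0.63 for the RNA polyadenylase Tent4b. The 2 positive values were 1.70 for Tsc22d1 and 3.02 for Pnpla3, the latter resting on CDDO-Im livers at the bottom of the scale in both genotypes. Pnpla3 passed the filter on low signal through the WT vehicle livers alone. Under the drug itself 4 of the 23 genes were called, Srxn1, Mafg and Dennd4c lower and Cbr1 higher in CKO livers. Without 1 array, 21 of the 23 lost the call in at least 1 of 12 fits, and 0 changed sign.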

How the results depend on the processing

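The 128 genes called under the drug were 29 without a filter on low signal (26 of them among the 128, with 18193 genes tested), 56 with the 6 CDDO-Im arrays alone (38 among the 128) and 32 to 139 without 1 array. With every probe set tested the count was 195 of 13298, which are probe sets and not genes. The 23 interactions were 7 without a filter, 42 with every probe set and 2 to 31 without 1 array, and the 543 vehicle calls were 232, 828 and 275 to 537. The counts of 42 and 828 are of probe sets as well. Under the drug the count was 137 with quantile normalization, 145 with median centring, 118 with at least 6 arrays above 5, 102 with the mean of a gene's probe sets (6788 genes tested), 127 with an intensity trend, 125 with a robust fit and 124 with repeated values left out. The 2 called genes of repeated values were Tfe3 and Prkcd. Scaling moved the median of all genes from -0.01 to 0.00 at most. Among 855 values of 72 named genes under the settings other than leaving out 1 array, 76 lost a call, 3 gained one and 0 changed sign, and 0 changed sign without 1 array. Signal near the bottom of the scale limits 14 of the 62 rises, whose WT CDDO-Im mean was under 5. The causes of these changes were not tested.

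Replicate numbers are shared between the drug groups, but deviations of same-numbered livers correlated at 0.127, 0.078 and 0.146 for numbers 2, 3 and 4, so the numbers were not taken as a pairing, although each liver correlated best with its own number. With the replicate number as a block the drug count was 18 with the 6 arrays and 42 with all 12 (15 and 33 among the 128), the interaction count 3 and the vehicle count 55. The vehicle groups share only number 3, and numbers 1 and 5 each occur on 1 array, which the block absorbs. The interaction and vehicle counts under the block are limited by this numbering. Keap1 stayed at -1.57 under both blocks with an adjusted p of 0.0885 and 0.0523, and Nqo1 was called with the block over all 12 arrays (0.0488). Other named genes kept their call in all 12 fits without 1 array and lost it with the block over the 6 arrays. These were Abcc5 (limma adjusted p = 0.0676), Tinag (0.0885), Gpx2 and Pls1 (both 0.0913), and H2-Q5 and Slc22a12 (both 0.132).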

Other observations

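The following 6 of the 66 genes lower in CKO CDDO-Im livers were chosen after their values were seen and belong to no list, so they describe no gene group. Beside H2-Q5, the class I histocompatibility genes H2-D1 and H2-K1 were lower, H2-D1 with 13.94, 13.92 and 13.89 in WT CDDO-Im and 13.35, 13.47 and 13.43 in CKO CDDO-Im livers (limma adjusted p = 0.0207) and H2-K1 with 15.66, 15.71 and 15.56 against 15.23, 15.19 and 15.20 (adjusted p = 0.0484). Their probe sets are of a kind that can match related sequences, so these are not independent genes by this measurement. Jak1, a kinase of interferon and interleukin receptors, read 11.42, 11.42 and 11.50 against 11.17, 10.93 and 11.01 (adjusted p = 0.0249). Irf2, an interferon regulatory factor, read 8.20, 8.44 and 8.28 against 7.34, 7.61 and 7.21, 1.89-fold lower (adjusted p = 0.0364). Lifr, the receptor of leukemia inhibitory factor, was 2.20-fold lower and the pyroptosis protein Gsdmd 2.19-fold lower (adjusted p = 0.0337 and 0.0185). In each gene the 2 groups did not overlap. None of these 6 calls held in all 12 fits without 1 array: they were lost in 6 fits for H2-D1, 10 for H2-K1, 5 for Jak1, 6 for Irf2, 7 for Lifr and 5 for Gsdmd. The adjusted p was highest without CKO CDDO-Im replicate 3 for Jak1 (0.0897) and without WT CDDO-Im replicate 3 for the others, from 0.0821 for Gsdmd to 0.173 for H2-K1.

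The genes higher in CKO CDDO-Im livers also included Abcc12, a further pump of the Abcc family, which was outside the transporter list. It read 4.25, 4.82 and 4.69 in WT CDDO-Im and 8.08, 6.51 and 7.19 in CKO CDDO-Im livers (log2 difference 2.68 ± 0.34, adjusted p = 0.00546) and kept its call in all 12 fits without 1 array. Heph, a copper oxidase of iron export, read 2.53, 2.59 and 3.23 against 5.48, 5.34 and 4.16 (adjusted p = 0.0114). Nt5e, which makes adenosine outside cells, was 2.31-fold higher, with 5.71, 5.95 and 6.00 against 7.07, 6.84 and 7.37 (adjusted p = 0.0185). Heph lost its call in 2 and Nt5e in 4 of those fits, both at their highest without WT CDDO-Im replicate 3 (adjusted p = 0.0608 and 0.0742). Abcc12 and Heph read under 5 in the WT CDDO-Im livers and can have passed the filter through CKO livers, where they are high.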
